A study of Mus musculus with 265 samples.

Results

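Accessible chromatin at the genes of the SWI/SNF complex was followed in single mouse pre-B cells before and after the induction of the transcription factor Ikaros. The 10 genes were Smarca4, Smarca2, Smarcb1, Smarcc1, Smarcc2, Smarcd1, Smarcd2, Smarce1, Arid1a and Arid2. A region of the deposited matrix was taken as theirs when the nearest start of a protein-coding gene in GENCODE vM21 was that of one of these genes and lay within 50 kb of the midpoint of the region. This rule found 21 of the 20103 regions, at 8 of the 10 genes. The cells were the B3 line, a pre-B line that carries Ikaros fused to the ERt2 part of the estrogen receptor, so that the fusion protein acts once 4-hydroxytamoxifen is present. The 0-hour cells were collected before the drug and the 24-hour cells after 24 hours with it, with a further dose given midway, and both groups carried the same ERt2-Ikaros construct. The comparison holds no cells given the drug without the fusion protein, so an effect of the drug and an effect of Ikaros cannot be told apart. Each time-point had 2 C1 runs, in which single-cells were captured on a microfluidic chip and their open DNA was tagged by Tn5 transposase. The matrix holds 48 and 47 0-hour cells and 60 and 72 24-hour cells in run 1 and run 2, 227 in all.

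SWI/SNF complexes use the energy of ATP to slide or evict nucleosomes, and so open or close the DNA that transcription factors read. Each complex holds one ATPase, either Smarca4 (BRG1) or Smarca2 (BRM), together with Smarcc and Smarcd proteins. BAF and PBAF complexes also hold Smarcb1 and Smarce1, and differ in their ARID protein, such as Arid1a in BAF and Arid2 in PBAF. The complex is needed for B cell development, and Ikaros is known to associate with it as well as with NuRD, a remodelling complex that also carries histone deacetylases.

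The runs differed in depth, which bears on every share of cells given here. Run sums were 164357 and 92639 counts at 0 hours and 122586 and 142611 counts at 24 hours, and the median count per cell was 2898 in 0-hour run 1 against 1676 to 1840 in the other runs. Nothing in the labels says that the runs came from separate cultures, so p-values measure only the spread between runs, which may be technical. Among the pre-B cell markers, 6 had a region within 1 kb of their start, seen in 7.49% to 16.7% of cells, while Rag1 had none. No region lay within 1 kb of the start of any of 4 T cell or 3 erythroid markers, and 1 of 4 myeloid markers had one, Lyz2, with signal in 6 cells.

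Promoters of SWI/SNF genes were mostly open at a detectable level. Of the 10 genes, 8 had a region within 1 kb of their start, next to 34.4% of the 21951 protein-coding genes. The same 8 were the genes with any region, and over all genes 45.1% had any region and 76.2% of those had one within 1 kb. Of the 21 regions, 12 lay within 1 kb of the start and 9 lay farther away. Arid1a had 5 regions, Smarca4, Smarca2 and Smarcc2 had 3 each, Smarcc1, Smarcd2 and Arid2 had 2 each, and Smarcd1 had 1. No region was assigned to Smarcb1, a core subunit, where the nearest region lay 10.8 kb from the start and was assigned to Chchd10. Smarce1, an HMG-box subunit, had no region either, and the nearest one, 139 kb away, was assigned to Krt28. The matrix holds only regions called from bulk samples, each seen in at least 5 cells, so that these genes had no region does not show that their promoters were closed.

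**Figure D1:**
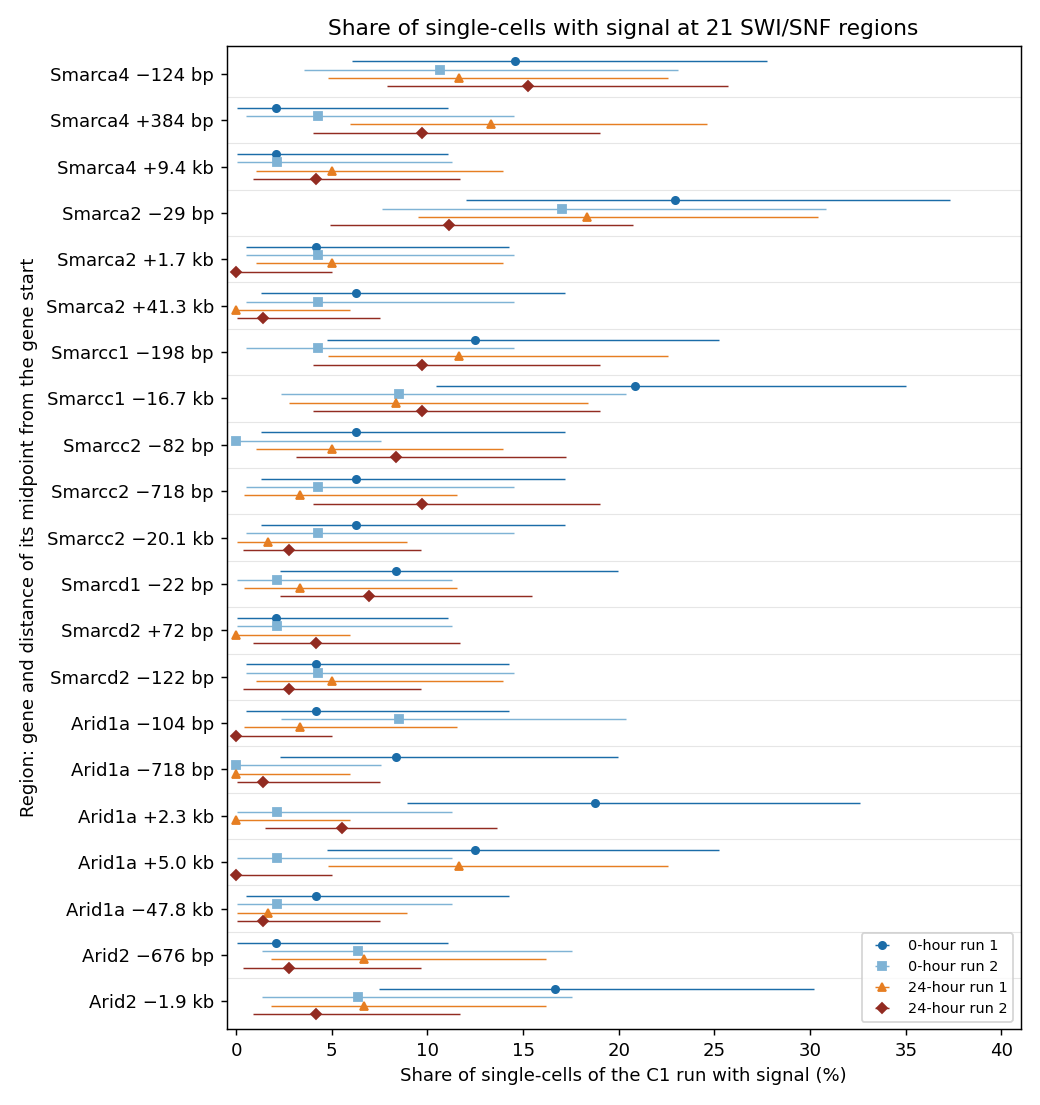
Share of single-cells with signal (horizontal axis, %) at each of the 21 regions (vertical axis, gene and distance of the region midpoint from the gene start, minus for upstream), one point per C1 run with its exact 95% binomial interval. The Smarca2 region 29 bp upstream has the highest share over all cells, the intervals of the 4 runs overlap widely at most regions, and the Smarca4 region at +384 bp has both 24-hour runs above both 0-hour runs.

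Between the time-points, no SWI/SNF region passed the test. With edgeR's quasi-likelihood test on counts summed per run, 0 of the 21 regions were higher at 24 hours and 0 at 0 hours at an adjusted p of 0.05, and over all regions 8 of 20103 (0.0398%) and 3 (0.0149%) were called in these directions. At an unadjusted p of 0.05, 1 member region was higher at 24 hours and 0 at 0 hours, against 5.11% and 7% of all regions. DESeq2 called 0 of the 21 and 0 of all regions. With DESeq2, 0 of the 21 had an unadjusted p under 0.05, against 2.25% and 3.15% of all regions in the 2 directions. CPM values, counts scaled to the TMM-adjusted total of the run, did not overlap between the time-points at 4 member regions that were higher at 24 hours, against a background of 19.3%, and at 2 that were higher at 0 hours, against 25.7%. By the share of cells, 2 regions were higher in both 24-hour runs and 4 in both 0-hour runs, where the background was 8.59% and 33.7%. These counts were near or below the background in each direction.

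Smarca4 encodes the ATPase BRG1. Over all regions, 19.3% had a higher CPM in both 24-hour runs than in either 0-hour run. Among all regions within 1 kb of a start, 28.0% did. All 3 Smarca4 regions did. The first lay just upstream of the start at chr9:21615977-21616114 and the second in the first intron at chr9:21616496-21616611, and the sequences of both are shown because the largest log2 difference among the members was seen at this promoter. Both are on the forward strand of mm10, the strand of the gene, and the upstream one is given only up to the first base that RefSeq annotates as transcribed, chr9:21615977-21616105.
Smarca4 upstream of the start: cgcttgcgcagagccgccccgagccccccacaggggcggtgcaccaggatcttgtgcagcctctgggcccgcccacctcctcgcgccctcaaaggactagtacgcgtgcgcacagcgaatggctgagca
Smarca4 first intron: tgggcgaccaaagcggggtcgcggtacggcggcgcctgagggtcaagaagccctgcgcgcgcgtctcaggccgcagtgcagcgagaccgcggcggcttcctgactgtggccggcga
Neither sequence holds GGGAA, the core bound by Ikaros proteins, on either strand.

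The Smarca4 first-intron region, 384.5 bp downstream of the start, had signal in 18 cells. It was seen in 1 of 48 cells (2.08%, exact 95% interval 0.0527% to 11.1%) among the first 0-hour run and in 2 of 47 (4.26%, 0.52% to 14.5%) among the second. At 24 hours it was seen in 8 of 60 cells (13.3%, 5.94% to 24.6%) of run 1 and in 7 of 72 (9.72%, 4.00% to 19.0%) of run 2. The 2 groups of runs did not overlap, although the intervals of single runs did. In CPM the runs stood at 6.06 and 31.3 at 0 hours and at 72.8 and 103 at 24 hours. The difference was 2.36 on the log2 scale (SE 0.97, 95% interval 0.41 to 4.32), with p = 0.0185 and an adjusted p = 0.306 by edgeR, so this was the 1 member region with an unadjusted p under 0.05 and it did not pass the correction over all regions. After thinning each cell to 837 counts, which left out 23 shallower cells, the shares were 0% and 2.17% at 0 hours and 10.6% and 6.35% at 24 hours. The 0% stands for 0 of 48 cells, for which the limit of 3 counts is a share of 6.25%.

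The Smarca4 region 123.5 bp upstream of the start had signal in 30 cells, more than 86.1% of all regions had. Its shares were 14.6% and 10.6% of cells at 0 hours and 11.7% and 15.3% at 24 hours, which overlapped. In thinned cells they were 0% and 2.17% against 4.26% and 6.35%. These values did not overlap, but the limit for 0 of 48 cells, 6.25%, lies above 4.26%. No share over all regions is given for thinned cells. CPM values were 54.6 and 52.2 at 0 hours and 72.8 and 95.3 at 24 hours, a log2 difference of 0.64 (SE 0.75, 95% interval -0.86 to 2.15, adjusted p = 0.794 by edgeR). It was 2.16 in thinned cells, and 0.17 when runs were scaled by cell number. The third region lay in an intron 9356.5 bp downstream of the start and was seen in 8 cells, at 2.08% and 2.13% of cells at 0 hours and 5% and 4.17% at 24 hours. The difference there was 2.02 on the log2 scale (95% interval -0.82 to 4.85, adjusted p = 0.61 by edgeR). Of the 46 cells with signal at the upstream or the first-intron region, 2 had signal at both, and each of them shared 1 cell with the third.

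Smarca2 encodes BRM, the other ATPase, and its start held the region seen in the most cells of all members. The region at chr19:26604946-26605096 spanned the start, with its midpoint 29 bp upstream. Its part before the start, chr19:26604946-26605049 on the forward strand of mm10, is shown as the most often detected promoter among the members.
Smarca2 upstream of the start: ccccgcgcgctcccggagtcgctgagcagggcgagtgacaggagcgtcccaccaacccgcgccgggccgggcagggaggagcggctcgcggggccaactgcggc
The region had signal in 38 cells (16.7%), more than 86.9% of the regions within 1 kb of a start had. The shares were 22.9% and 17.0% at 0 hours and 18.3% and 11.1% at 24 hours. After thinning they were 6.25% and 6.52% at 0 hours and 14.9% and 7.94% at 24 hours, so the order of the time-points changed. Thinning also left out cells unevenly, keeping 48 of 48 and 46 of 47 at 0 hours and 47 of 60 and 63 of 72 at 24 hours, and the parts of depth and of the cells left out cannot be told apart. CPM values were 91.0 and 136 at 0 hours and 146 and 95.3 at 24 hours, with the lowest value in a 0-hour run and the highest in a 24-hour run. The log2 difference was 0.11 (SE 0.59, 95% interval -1.07 to 1.29, adjusted p = 0.962 by edgeR).

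The other Smarca2 regions were seen in few cells. The one in an intron 1744 bp downstream of the start had signal in 2 of 48 and 2 of 47 cells at 0 hours and in 3 of 60 cells of 24-hour run 1, and in 24-hour run 2 in 0 of 72 cells, a share of at most 4.17% by the limit of 3 counts. The one 41280 bp downstream had signal in 5 of 95 0-hour cells and 1 of 132 24-hour cells. A log2 difference of -1.89 (95% interval -4.87 to 1.09, adjusted p = 0.662 by edgeR) was not called, nor was that of the nearer one, -0.36.

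Smarcc1 and Smarcc2 encode the paired scaffold subunits on which the complex is built. The Smarcc1 region nearest the gene start, chr9:110117436-110117584 with its midpoint 198 bp upstream, had signal in 22 cells, at 12.5% and 4.26% of cells at 0 hours and 11.7% and 9.72% at 24 hours. CPM values were 54.6 and 31.3 against 97.0 and 58.7, so both 24-hour runs were above both 0-hour runs by a narrow margin. The log2 difference was 0.79 (SE 0.80, 95% interval -0.82 to 2.40, adjusted p = 0.753 by edgeR). The region also lay 73 bp from a transcript start of Dhx30, an RNA helicase gene that runs the other way, and the 2 promoters cannot be told apart at this site. The other Smarcc1 region, 16688.5 bp upstream and seen in 26 cells, lay inside Dhx30 with a Dhx30 transcript start 18.5 bp away. Its shares were 20.8% and 8.51% at 0 hours and 8.33% and 9.72% at 24 hours, with only 0-hour run 1, the deepest run, standing higher.

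Most Smarcc1 transcripts start elsewhere. The gene start that GENCODE gives belongs to 1 of 6 coding transcripts, while 4 of them start within 1 kb of the RefSeq start, which lies 14316 bp downstream. A region sat there, at chr9:110131862-110132018, 40 bp from a Smarcc1 transcript start, and the rule gave it to Dhx30 because the gene start of Dhx30 was nearer. It is therefore not among the 21 regions and was looked at after its values were seen. Its part before the first Smarcc1 transcript, chr9:110131862-110131979 on the forward strand of mm10, is shown because this is the start of most Smarcc1 transcripts.
Start of most Smarcc1 transcripts: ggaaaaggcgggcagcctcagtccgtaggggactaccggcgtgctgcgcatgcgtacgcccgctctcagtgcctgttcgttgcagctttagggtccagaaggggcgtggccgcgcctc
It had signal in 30 cells, in 1 of 48 and 3 of 47 cells at 0 hours (2.08% and 6.38%) and in 4 of 60 and 22 of 72 cells at 24 hours (6.67% and 30.6%). Only 24-hour run 2 stood clearly above the rest. CPM values were 6.06 and 41.8 at 0 hours and 56.6 and 242 at 24 hours. The log2 difference was 2.83 (SE 0.83, 95% interval 1.16 to 4.49, p = 0.00126, adjusted p = 0.162 by edgeR), which did not pass. Without 24-hour run 1 it was 3.55 with an adjusted p = 0.000784 by edgeR, and without 24-hour run 2 it was 1.42 with an adjusted p = 0.74, so that 1 run decided whether the region was called. With 24-hour run 1 left out, edgeR called 456 and 341 of all regions in the 2 directions, against 8 and 3 with all runs. In that fit the spread of the single 24-hour run is taken to equal that of the 0-hour runs.

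Smarcc2 had 3 regions with small counts. The one 82 bp upstream of the start was seen in 3 of 48 and 0 of 47 cells at 0 hours and in 3 of 60 and 6 of 72 at 24 hours, with a limit of 6.38% for the share of the run with none. That was a log2 difference of 1.52 (SE 1.10, 95% interval -0.69 to 3.74, adjusted p = 0.625 by edgeR), and the runs overlapped. The region 717.5 bp upstream, at chr10:128458465-128458596, covered nearly all of n-TScga2, a gene for a serine transfer RNA that RefSeq annotates on the other strand, so signal there need not belong to Smarcc2. It was seen in 14 cells, in 3.33% of 24-hour run 1 and 9.72% of 24-hour run 2 with both 0-hour runs between them. The region 20150 bp upstream lay inside Rnf41 and was seen in 8 cells, with a log2 difference of -1.19 (95% interval -4.00 to 1.62). CPM values were 24.3 and 31.3 at 0 hours and 8.09 and 14.7 at 24 hours, so this region and the Smarca2 region 41280 bp downstream were the 2 with both 24-hour runs below both 0-hour runs in CPM.

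Smarcd1 and Smarcd2 encode related subunits that link the complex to transcription factors, and their promoters were detected in few cells. The Smarcd1 region, 22 bp upstream of the start in a stretch shared with the gene Gm17349, was seen in 12 cells. Its shares were 8.33% and 2.13% at 0 hours and 3.33% and 6.94% at 24 hours, so the 2 runs of each time-point differed more than the time-points did. The log2 difference was 0.36 (SE 1.05, adjusted p = 0.933 by edgeR). At Smarcd2, the region 72 bp downstream of the start, in the 5′ untranslated exon, was seen in 5 cells, the lowest number the matrix holds, and the one 122 bp upstream, inside the RefSeq gene Tcam1, in 9. Their log2 differences of 0.58 (95% interval -2.47 to 3.64) and 0.19 (95% interval -2.10 to 2.47) were smaller than their errors.

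Arid1a, which defines BAF complexes, had the most regions and had log2 differences below 0 at 4 of its 5 regions. The region 104 bp upstream of the gene start was seen in 2 of 48 and 4 of 47 cells at 0 hours and in 2 of 60 and 0 of 72 cells at 24 hours. Its log2 difference was -1.43 (SE 1.38, 95% interval -4.20 to 1.34, adjusted p = 0.74 by edgeR). The region 718.5 bp upstream was seen in 5 cells, 4 of them in 0-hour run 1. The region 47813.5 bp upstream was seen in 5 cells as well, with a log2 difference of 0.04. More cells had signal inside the gene, in introns 2328 bp and 5014.5 bp downstream of the gene start, where each region was seen in 14 cells. The former lay 830 bp upstream of the start of other Arid1a transcripts. Its shares were 18.8% and 2.13% at 0 hours and 0% and 5.56% at 24 hours, and those of the latter were 12.5% and 2.13% against 11.7% and 0%. Each was thus high in one run of a time-point and low or absent in the other, and 0-hour run 1, the deepest, was the highest at both. Log2 differences were -0.90 (SE 1.12) and -0.38 (SE 1.02).

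Arid2, which defines PBAF complexes, had 2 regions upstream of its start, both inside Gm38469, a gene that RefSeq annotates on the other strand. The nearer one, 676 bp away, was seen in 10 cells, at 2.08% and 6.38% at 0 hours and 6.67% and 2.78% at 24 hours, with a log2 difference of 1.32 (SE 1.19, 95% interval -1.06 to 3.70, adjusted p = 0.713 by edgeR). The farther one, 1861.5 bp away, was seen in 18 cells. Its shares were 16.7% and 6.38% at 0 hours and 6.67% and 4.17% at 24 hours, with 0-hour run 1 alone above the others. The log2 difference was -0.79 (SE 0.90, adjusted p = 0.787 by edgeR), so the 2 Arid2 regions had opposite signs and neither passed. The farther Arid2 region and the Arid1a region 2328 bp inside the gene each held 2 copies of GGGAA, the most among the members, and are shown for that reason on the forward strand of mm10, with GGGAA or its reverse complement in capitals.
Arid2 upstream, chr15:96285582-96285731: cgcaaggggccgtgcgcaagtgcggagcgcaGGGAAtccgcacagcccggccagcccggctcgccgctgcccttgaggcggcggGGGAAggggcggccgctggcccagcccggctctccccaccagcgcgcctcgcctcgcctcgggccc
Arid1a intron, chr4:133754365-133754517: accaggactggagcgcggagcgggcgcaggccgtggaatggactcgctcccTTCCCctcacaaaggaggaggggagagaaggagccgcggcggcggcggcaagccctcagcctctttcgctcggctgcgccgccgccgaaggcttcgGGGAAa

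**Figure D2:**
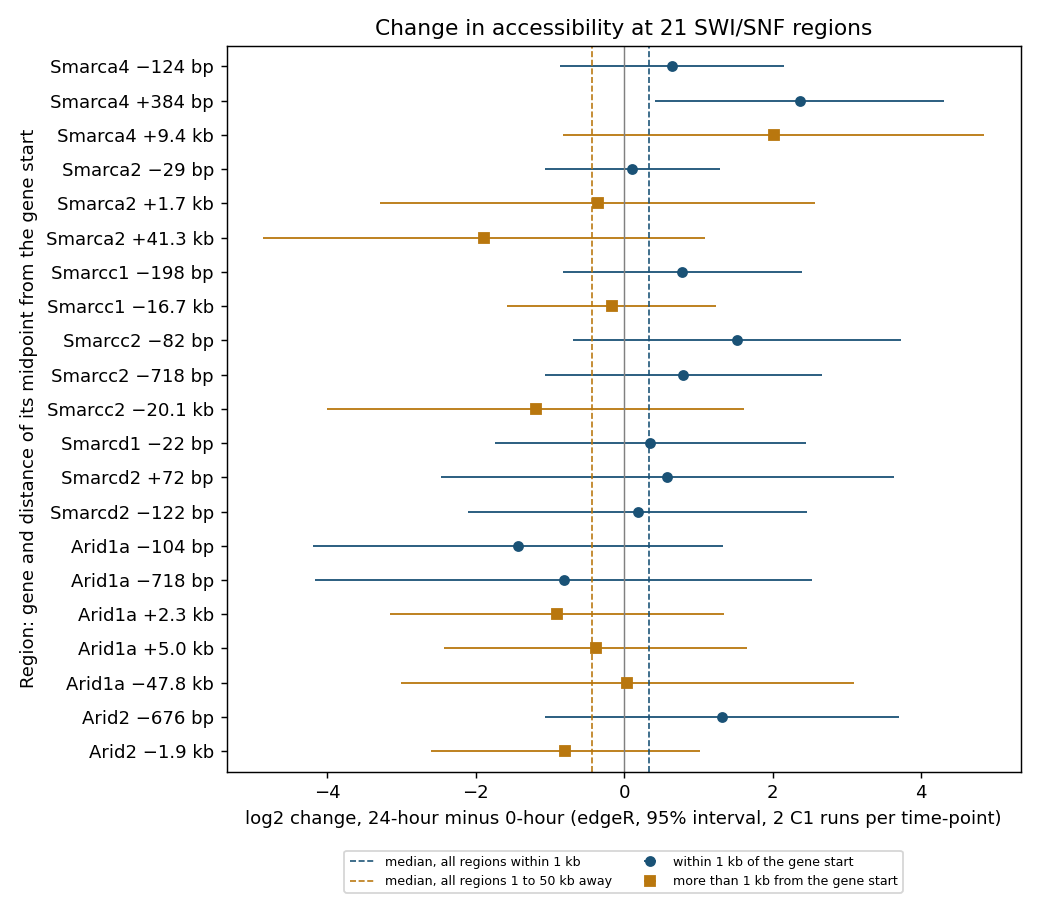
Log2 change from 0 hours to 24 hours (horizontal axis) at each of the 21 regions (vertical axis), with its 95% interval from the edgeR fit over all regions. Regions within 1 kb of the gene start lie above 0 at 10 of 12 sites, the interval of the Smarca4 region at +384 bp alone leaves out 0, and dashed lines give the medians of all regions at the same distances, 0.33 and -0.43.

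Regions near a start had higher median log2 changes than regions farther away, at the SWI/SNF genes as over all genes. Of the 12 member regions within 1 kb of a start, 10 (83.3%) had a log2 change above 0, with a median of 0.61, and over all 8786 such regions 64.6% did, with a median of 0.33. The 2 exceptions were both at Arid1a. Of the 9 regions farther away, 2 (22.2%) were above 0, with a median of -0.38. Over all 7973 regions 1 to 50 kb from a start, 37.6% were above 0, with a median of -0.43. The median over all 21 regions was 0.11 and over all regions of the matrix -0.06. When runs were scaled by their number of cells in place of their counts, the medians moved to -0.30 and -0.51, so the sign of the member median depended on the scaling. With that scaling the median within 1 kb was 0.18 for the members and -0.14 for all regions, and farther away it was -0.89 for both. Together the 21 regions held 0.0791% and 0.0712% of the counts of the 0-hour runs and 0.0865% and 0.0869% of those of the 24-hour runs.

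Summed over its regions, Smarca4 had the largest difference among the 8 genes in the main fit. The sum includes the first-intron region described above, so it is no separate evidence. Within 1 kb alone Smarca4 stood at 0.96, Arid1a at -1.54 and Arid2 at 1.03. With runs scaled by cell number, Smarca4 stood at 0.94 and Arid1a at -1.21. The 3 Smarca4 regions together gave 78.0 and 114 CPM of gene-assigned counts at 0 hours and 199 and 253 at 24 hours. Some signal at any of them was seen in 16.7% and 17.0% of 0-hour cells and 25% and 29.2% of 24-hour cells. The log2 difference was 1.27 (SE 0.55, 95% interval 0.19 to 2.35, p = 0.0212, adjusted p = 0.294 by edgeR). The 3 regions were assigned by distance, but the members were chosen with earlier results of these data known. Smarca4 was the only one of the 8 genes whose runs did not overlap, higher at 24 hours, where 21.5% of the 9901 genes with a region behaved likewise and 21.9% were separated the other way. None of the 8 passed with edgeR, which called 0.162% of all genes higher at 24 hours and 0.192% higher at 0 hours. DESeq2 gave the 8 genes no adjusted p, so they could not be called with it. It called 0 of all 9901 genes. At an unadjusted p of 0.05, edgeR had 1 of the 8 higher at 24 hours and 0 higher at 0 hours, against 5.77% and 6.24% of all genes. DESeq2 had 0 of the 8, against 5.61% of all genes in either direction.

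For Smarca2, the other ATPase gene, the sums were 156 and 240 CPM at 0 hours and 199 and 118 at 24 hours. Its log2 difference was -0.29 (SE 0.51, 95% interval -1.30 to 0.72), so the 2 ATPase genes had opposite signs, and the difference between them was not tested. Arid1a stood at 220 and 126 at 0 hours and 127 and 79.0 at 24 hours, a log2 difference of -0.80 (SE 0.57, 95% interval -1.91 to 0.32). Without 0-hour run 1 it was -0.30, and over the regions within 1 kb alone -1.54. Smarcc2 had 54.4 in the first and 213 in the second 24-hour run, the widest gap between runs of one time-point, and a log2 difference of 0.54 (SE 0.63). The remaining genes had differences smaller than their errors, at 0.14 (SE 0.53) for Smarcc1, 0.25 (SE 1.03) for Smarcd1, 0.21 (SE 0.90) for Smarcd2 and -0.12 (SE 0.69) for Arid2.

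**Figure D3:**
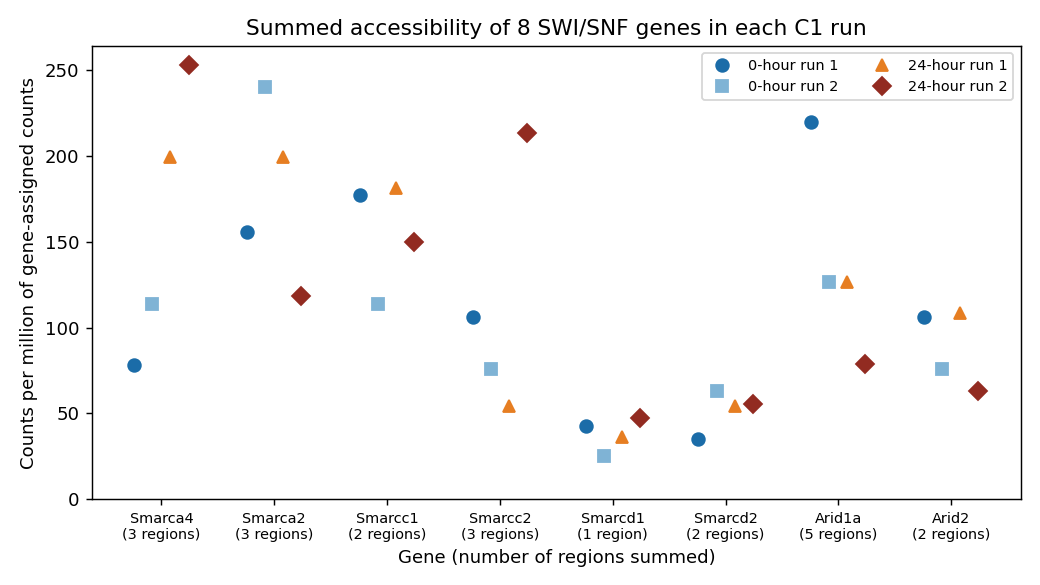
CPM of gene-assigned counts (vertical axis) summed over the regions of each of the 8 genes (horizontal axis), one point per C1 run. Both 24-hour runs of Smarca4, at 199 and 253, sit above both 0-hour runs, at 78.0 and 114, and the runs of the other 7 genes overlap between the time-points.

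Other subunits of the same complexes were looked at by the same rule. Of 21 further genes, 17 had 41 regions, and Actl6b, Phf10, Bcl11b and Smarcd3 had none. Of the 41 regions, edgeR called 0 and DESeq2 called 0, and at an unadjusted p of 0.05 edgeR had 2 higher at 24 hours and 2 higher at 0 hours while DESeq2 had 2 and 0, where the background was 5.11% and 7% for edgeR and 2.25% and 3.15% for DESeq2. Dpf2, a zinc finger subunit of BAF, had the smallest p, with signal in 0% and 2.13% of cells at 0 hours and 3.33% and 23.6% at 24 hours, and as at the start of most Smarcc1 transcripts 24-hour run 2 stood above the rest. Its log2 difference was 4.26 (SE 1.24, p = 0.00116, adjusted p = 0.158 by edgeR). Actb, which encodes beta-actin, a subunit as well as a cytoskeletal protein, had signal in 44.1% of cells over its 6 regions, and the one at its start was seen in 10.4% and 8.51% of cells at 0 hours and 13.3% and 23.6% at 24 hours (log2 difference 1.66, SE 0.65, adjusted p = 0.288 by edgeR), while the sum over its 6 regions differed by 0.13 (SE 0.35) on the log2 scale. Bicra, a subunit of the non-canonical complex, had signal in 42.7% of cells, and Actl6a, an actin-related subunit, in 35.2%. In the other direction stood regions of Bcl7a and Bcl7c, small subunits of the complex, with log2 differences of -1.92 (SE 0.82, adjusted p = 0.317 by edgeR) and -1.70 (SE 0.93, adjusted p = 0.468). Another Bcl7c region, 78 bp from its start, stood at 0.36 (SE 0.66), and the sums over the regions of each gene differed by -1.34 (SE 0.54) for Bcl7a and -0.44 (SE 0.53) for Bcl7c. The median log2 difference of the 41 regions was -0.03, that of the 24 regions of NuRD genes was 0.34, and edgeR called 0 of the latter as well, with 3 and 2 at an unadjusted p of 0.05 in the 2 directions and 2 and 1 by DESeq2, against the same background.

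Within single-cells the SWI/SNF regions were seen sparsely. In all there were 289 region-by-cell detections, 47.4% of them with the value 2, against 53.4% over all regions. Of the 227 cells, 73 had signal at none of the 21 regions and 75 at 1, and the highest number in a cell was 7. Cells with none had a median of 1443 counts, those with 1 had 1716, those with 2 had 2409, those with 3 had 3592, those with 4 had 3113, and the cell with 7 had 7820. Cells with more of the regions were thus mostly deeper, apart from those with 4. The share of cells with signal at any region was 75% and 66.0% at 0 hours and 70% and 62.5% at 24 hours, and the mean number of regions per cell was 1.85 and 1.00 against 1.22 and 1.11. With all cells thinned to 837 counts the means were 0.521 and 0.457 at 0 hours and 0.723 and 0.508 at 24 hours. In the thinned cells, which leave out the shallower ones, these means overlapped between the time-points. The thinned share of cells with any region was 45.8% and 43.5% at 0 hours and 53.2% and 36.5% at 24 hours.

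**Figure D4:**
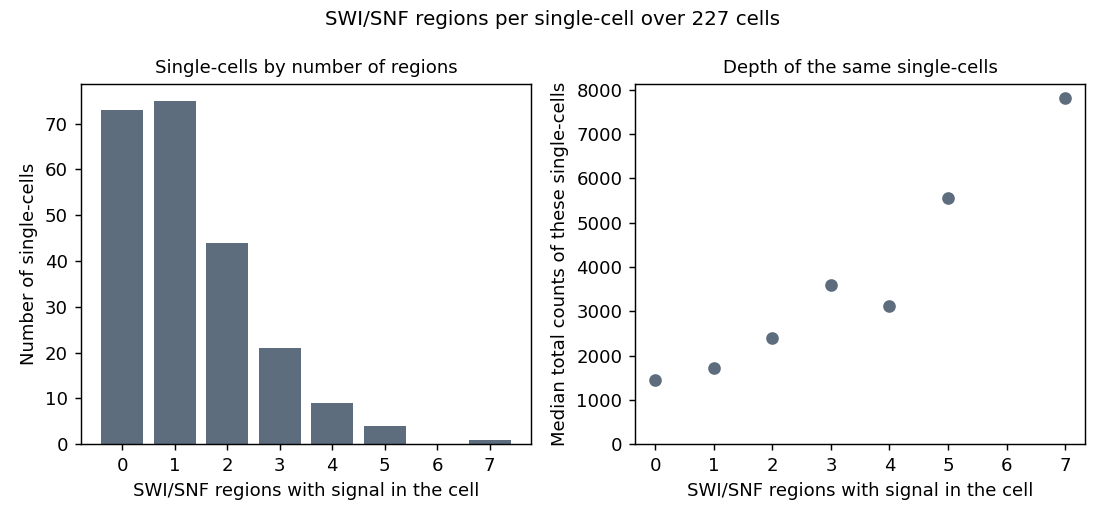
Left, number of single-cells (vertical axis) by how many of the 21 SWI/SNF regions had signal in the cell (horizontal axis). Right, median total counts of the same cells, which went from 1443 in cells with none to 7820 in the cell with 7.

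The 2 ATPase genes were compared cell by cell at the regions nearest their starts. Both regions had signal in 5 cells, the Smarca4 region alone in 25, the Smarca2 region alone in 33 and neither in 164. Median counts were 3950 in cells with both and 1709 in cells with neither. At this depth, a cell without signal need not have a closed promoter, so these numbers do not separate cells that use one ATPase gene from cells that use both. The genes whose promoter detection over the 227 cells was most like that of the Smarca2 region were Haus6, Fam210b and Ilf2, with Jaccard indices of 0.262, 0.257 and 0.254, where the median over 8774 promoter regions was 0.0816. The highest index of the Smarca2 region with another member was 0.111, at the Smarcc1 region 198 bp upstream. Detection in the same cell depends on depth and on how many cells have signal at each region, and these values are given as a description.

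Sequence features of the 21 regions were compared with those of the whole matrix. Their median GC content was 68.5%, next to 65.7% for all regions within 1 kb of a start and 58.2% for all regions, and it ranged from 43.2% at an Arid1a intron to 85.4% at the Smarcc2 start. Searched on both strands, GGGAA was found in 7 of the 21 (33.3%), and in 35.6% of all regions. CCGGAAG, a form of the ETS site, was found in 3 (14.3%), against 8.8% of all regions and 15.3% of those within 1 kb of a start, at the Smarca2 start, in the part not shown above, and at both regions that Smarcc1 shares with Dhx30. The E-box CANNTG was found in 9 (42.9%, against 44.7%) and AAGATGG, the YY1 motif, in 1 (4.76%, against 2.56%), in an Arid1a intron. Every member region had a single copy in the genome when hits over most of its length were counted, and 7 of them held repeat-masked bases. Copies of shorter stretches, such as the transfer RNA gene in a Smarcc2 region, were not counted.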

How the data were processed

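Single-cell ATAC-seq was analysed from 1 matrix of 20103 regions by 227 cells. The authors mapped reads to mm10 with Bowtie2, removed duplicates with Picard, kept libraries of sufficient depth, used HOMER peaks of bulk replicates and deposited whole-number counts per region and cell, without normalization. No count exceeds 2, and the sources used here do not say how larger values were handled. Of 48, 63, 75 and 73 single-cells labelled for the 4 runs, the matrix holds 227. The 6 bulk samples were not used.

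Counts were summed per C1 run, since the cells captured together are no independent replicates. No doublet caller was run, since each capture site had been inspected. Regions, and sums per gene, were tested with edgeR 4.0.16 (quasi-likelihood, TMM, Benjamini-Hochberg, threshold 0.05) in R 4.3.3, without a filter. DESeq2 1.42.0 was an alternative. The test was checked on simulated data. Shares carry exact Clopper-Pearson intervals at 95%, a count of 0 allows up to 3 counts, and both cover counting error only. Thinning drew 837 counts per cell, the 10th percentile. Copies came from BLAST 2.17.0, sequences and transfer RNA genes from GRCm38.p6 with RefSeq annotation. All member regions are named. Of the other subunits, up to 3 were named by cells with signal and up to 2 per direction by p. The members, lists and rules were chosen with earlier results of these data known. One item of the marker list is not reported here.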

Additional observations from a re-analysis of the deposited data

How the results depend on the processing

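No member region was called by DESeq2, or by edgeR with another scaling, detected values, thinned cells or the block. Only the Smarca4 region 123.5 bp upstream, the Smarca2 start region and the Smarcc1 region 16688.5 bp upstream passed the filter at 10% of cells. None of these was called, and the other member regions were not tested with the filter. No member gene was called in the same edgeR fits, which for genes did not include the filter or thinned cells, or within 1 kb alone. DESeq2 gave the member genes no adjusted p, so they could not be called with it. In fits with 1 run left out, the remaining run of its time-point was taken to have the spread of the other time-point. Counts over all regions did move. Against 8 regions called up and 3 called down at 24 hours, DESeq2, values reduced to detected or not, and thinned cells each left 0 and 0. Run totals without TMM gave 21 and 12, and the number of cells as offset 0 and 3. Among regions in at least 10% of cells 10 were higher at 0 hours. Leaving out a run in turn gave 0 to 341 calls higher at 0 hours and 1 to 456 higher at 24 hours. The cause was not tested. First and second runs share only a number, with a correlation of their deviations of -0.01, and the replicate block with paired runs gave 9 and 2.

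The 24-hour share of member counts was 1.15 times the 0-hour share, 1.43 times in thinned cells and 1.47 times within 1 kb, where all regions within 1 kb held 51.0% and 48.5% of counts at 0 hours and 58.3% and 66.4% at 24 hours. Signs reversed where the change was small. Under the offset by cell number, the log2 change was -0.30 at the Smarca2 start, -0.15 at the Smarcd1 start, and -0.26, -0.15 and -0.093 for the sums of Smarcc1, Smarcd1 and Smarcd2. It was -0.15 at the Smarca2 start among regions in at least 10% of cells, -0.15 at the Smarcd1 start in thinned cells, and 1.03 for the Arid2 sum within 1 kb. Leaving out each run in turn gave -0.20 to 0.41 at the Smarca2 start and -3.74 to 1.54 at the Smarcd2 start. For sums it gave -0.69 to 0.058 for Smarca2, -0.091 to 0.53 for Smarcc1, -0.77 to 1.17 for Smarcc2, -0.0075 to 0.71 for Smarcd1, -0.20 to 0.63 for Smarcd2 and -0.56 to 0.21 for Arid2. The Smarca4 first-intron region, carried through the alternatives after its values were seen, kept its sign, from 1.48 to 3.68 with a run left out, and its adjusted p over all alternatives ranged from 0.0966 to 0.915. Other starts moved without a change of sign when a run was left out, from -5.16 to -0.41 at Arid1a, 0.43 to 5.69 at Smarcc2, 0.45 to 2.65 at Arid2, 0.38 to 1.30 at Smarcc1 and 0.072 to 0.86 at Smarcd1. The values of -5.16, 5.69 and -3.74 (Smarcd2) compare with a remaining run of 0 counts, so the prior count of the fit sets their size. Transcript starts gave 23 member regions, and both Smarcc1 regions of the report went to Dhx30. A window of 5 kb gave 15. Thinned cells had no count at the Smarcd2 region nearest its start, so it has no value there. Depth limits these results, since most member regions were seen in under 10% of cells.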

Other observations

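Assigning regions by the starts of all protein-coding transcripts in place of gene starts added 3 further regions to the SWI/SNF genes beside the one at the start of most Smarcc1 transcripts, and took away the 2 Smarcc1 regions that went to Dhx30. One lay 200.5 bp from an internal transcript start of Smarca2, the gene for the ATPase BRM. It was seen in 3 of 48 and 5 of 47 cells at 0 hours and in 1 of 60 and 0 of 72 cells at 24 hours, the latter a share of at most 4.17%. Its log2 difference was -2.75 (SE 1.27, 95% interval -5.30 to -0.20, p = 0.0354, adjusted p = 0.359 by edgeR), lower in both 24-hour runs and not past the correction, while the start of the gene itself stood at 0.11. Another, 16775.5 bp from an Arid1a transcript start and assigned to Pigv by gene starts, was seen in 30 cells, in 25% and 10.6% of cells at 0 hours and 18.3% and 2.78% at 24 hours. The last, 5147 bp from a Smarcc1 transcript start, was seen in 6 cells.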
